A study of Rattus norvegicus with 4 samples.

Results

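The genes described here are the nuclear-encoded subunits of the mitochondrial oxidative phosphorylation complexes, measured in rat cortical neurons with and without knockdown of Cmtr1. They were taken by name, as every gene of the array whose name follows the pattern of the Nduf (complex I), Sdh (complex II), Uqcr (complex III), Cox4 to Cox8 (complex IV) or Atp5 (complex V) series. The name rule holds no measured difference, but this group of genes was chosen with earlier results of these data known. Of 79 such names, 78 had a probe that 2 or more of the 4 arrays marked as well above background, out of 30364 genes kept by the same filter. The testis-type isoform Cox8c was not well above background on any array. The name pattern also took in 4 genes that are not subunits, namely Atp5s, Atp5sl, Cox7a2l and the pseudogene Cox6c-ps1, so that 74 of the 78 members are subunits.

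Cultures of cortical neurons came from Sprague Dawley rat embryos of both genders at stage E18.5. All were infected with a lentivirus at day 2 in vitro and harvested at day 7. The shCTL group received a control shRNA and the shCM1 group an shRNA against Cmtr1, the cap methyltransferase that modifies the ribose of the nucleotide next to an mRNA's cap. Each group held 2 arrays, described as coming from 2 independent experiments, and all RNA was labelled with Cy3. Both groups carry a lentivirus and an shRNA, a single Cmtr1 shRNA label is given, and its sequence is not in the sources used here. The neurons were cultured as a whole and not sorted.

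Oxidative phosphorylation makes most of the ATP of a neuron. Complexes I and II pass electrons from NADH and succinate to ubiquinone, complex III passes them on to cytochrome c and complex IV to oxygen, and the proton gradient that complexes I, III and IV build drives ATP synthesis by complex V. Most subunits are encoded in the nucleus, translated in the cytosol and imported, while a small set of the membrane-embedded core comes from mitochondrial DNA, and many of the nuclear genes have promoters with sites for the factors NRF1 and GABP (an ETS family factor) or YY1.

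The target itself was measured first. Cmtr1 had levels of -1.43 and -1.86 in shCTL and -3.46 and -3.53 in shCM1, where a level is the log2 signal relative to the 75th percentile of the array and a difference is shCM1 minus shCTL. Its difference was -1.85 (27.7% of control, limma with the slide as a block, adjusted p = 1.36e-07). Replicate 1 of both groups lay on 1 slide and replicate 2 of both on another, and the leading principal component, with 65.3% of the variance, separated the slides while the next, with 24.9%, separated the groups. Differences are therefore given within each slide and tested with limma both without and with the slide as a block. Of the marker lists, the 10 neuron markers summed to 302.2 and 233.5 (linear signal relative to the 75th percentile) in shCTL and 282.6 and 210.2 in shCM1, with a median difference of -0.08, and 1 of them passed the blocked test, Tubb3, lower by a difference of -0.37. The 14 measured of 15 microglia markers summed to 2.96 and 2.69 in shCTL and 4.55 and 3.59 in shCM1, with 8 higher under the blocked test, so that signal of these markers was measured in every culture and differed between the groups. Astrocyte markers had a median difference of -0.04 with none of 10 called, while 2 of 8 oligodendrocyte lineage, 1 of 8 endothelial and pericyte, and 2 of 5 fibroblast markers were higher and 1 oligodendrocyte lineage marker lower. Of all genes, 3.7% were higher and 3.05% lower in the blocked test. Most markers called higher lay below the 75th percentile, where genes other than members had a median difference of 0.15. The part of these cell types in the differences below was not tested. In bulk RNA, fewer cells of a type and less RNA per cell cannot be told apart.

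In the fit without a block, none of the 78 members and none of the 30364 genes passed an adjusted p of 0.05 (limma), with 910 genes and 0 members below an unadjusted 0.05. With the slide as a block, 8 members were lower in shCM1 and none was higher, at adjusted p under 0.05 over all genes. The background of that test was 3.05% of all genes lower and 3.7% higher. Below an unadjusted 0.05 were 20 members that were lower and 2 that were higher, against 7.82% and 14.9% of all genes. Counts for genes of similar brightness are given further below. Described here are 7 of the 8 called members, at between 72.0% and 82.8% of their control level. They are Ndufb5 and Ndufa5 of complex I, Sdha and Sdhd of complex II, Uqcrc2 of complex III, Cox7c of complex IV and Atp5a1 of complex V. The p-values of the blocked fit rest largely on the spread shared by genes of similar signal, since its variance prior held 18.7 degrees of freedom, and with no intensity trend in that prior no member and no gene was called, with 4 members and 5102 genes below an unadjusted 0.05. An exact permutation test over 2 arrays a group can reach no p below 0.33 for a gene, and the p-values here measure only the spread between these samples.

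Short stretches of the promoters of these 7 genes, from the RefSeq promoter table, are shown because genes of these complexes are known for shared promoter sites. Each runs 5′ to 3′ in the direction of the gene, from 100 bases before to 30 bases after the annotated start, in assembly GRCr8. Capitals mark the letters CCGGAAG (ETS), GCGCA and GCGC with any base between them (NRF1), or AAGATGGC (YY1), on either strand, the reverse strand showing as CTTCCGG for the ETS letters. No one of these motifs holds another.
Ndufa5, chr4:53971206-53971335, minus strand: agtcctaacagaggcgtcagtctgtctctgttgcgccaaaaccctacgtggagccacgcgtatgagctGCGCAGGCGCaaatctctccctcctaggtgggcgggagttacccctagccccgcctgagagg
Ndufb5, chr2:117447505-117447634, plus strand: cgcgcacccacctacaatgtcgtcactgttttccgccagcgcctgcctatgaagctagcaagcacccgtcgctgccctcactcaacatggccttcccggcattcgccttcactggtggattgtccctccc
Sdha, chr1:30764453-30764582, plus strand: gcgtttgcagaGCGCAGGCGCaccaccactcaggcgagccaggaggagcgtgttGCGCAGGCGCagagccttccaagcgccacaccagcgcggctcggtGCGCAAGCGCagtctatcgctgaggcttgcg
Sdhd, chr8:59850612-59850741, minus strand: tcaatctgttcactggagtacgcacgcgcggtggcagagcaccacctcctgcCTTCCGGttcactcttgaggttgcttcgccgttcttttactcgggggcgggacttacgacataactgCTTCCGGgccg
Uqcrc2, chr1:184599140-184599269, plus strand: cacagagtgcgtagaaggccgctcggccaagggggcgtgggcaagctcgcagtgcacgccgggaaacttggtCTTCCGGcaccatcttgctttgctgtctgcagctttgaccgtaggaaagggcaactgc
Cox7c, chr2:18579141-18579270, minus strand: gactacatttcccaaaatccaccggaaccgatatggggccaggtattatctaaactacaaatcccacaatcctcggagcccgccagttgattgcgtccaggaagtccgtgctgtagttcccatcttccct
Atp5a1, chr18:73567437-73567566, plus strand: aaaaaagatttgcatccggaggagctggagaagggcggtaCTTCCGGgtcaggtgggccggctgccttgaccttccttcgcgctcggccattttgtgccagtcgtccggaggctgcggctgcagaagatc
Sdha holds the NRF1 letters at 3 places and Ndufa5 at 1. Sdhd holds the ETS letters at 2 places, and Uqcrc2 and Atp5a1 at 1 each. Ndufb5 and Cox7c hold none of these letters in the stretch shown.

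Across the 66 members with an entry, the ETS letters were in 19 promoters (28.8%) of the 300-base window from 250 before to 50 after the start, against 9.22% of all 27457 promoters in the table. The NRF1 letters were in 14 member promoters (21.2%, against 4.71% of all), and the YY1 letters also in 14 (21.2%, against 3.44%). At least 1 of these motifs was in 38 members (57.6%) and in 15.5% of all promoters. These are matches of letters and not measured sites.

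Among all 78 members, 52 were lower in shCM1 within both slides, 12 were higher within both and 14 had slides of opposite sign. Of all genes, 22.6% were lower and 44% higher within both slides. The members' median difference was -0.11, with -0.08 on slide 1 and -0.13 on slide 2, against 0.08 for all genes. Both shCM1 arrays lay below both shCTL arrays for 21 members (background 10.1%) and above them for 4 (background 21.6%). Counts among genes of similar brightness are given further below. Single arrays moved the median, since it was -0.03 without shCTL replicate 1, -0.18 without shCTL replicate 2, -0.23 without shCM1 replicate 1 and -0.0024 without shCM1 replicate 2. Such a left-out array also leaves the slides unbalanced between the groups.

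**Figure D1:**
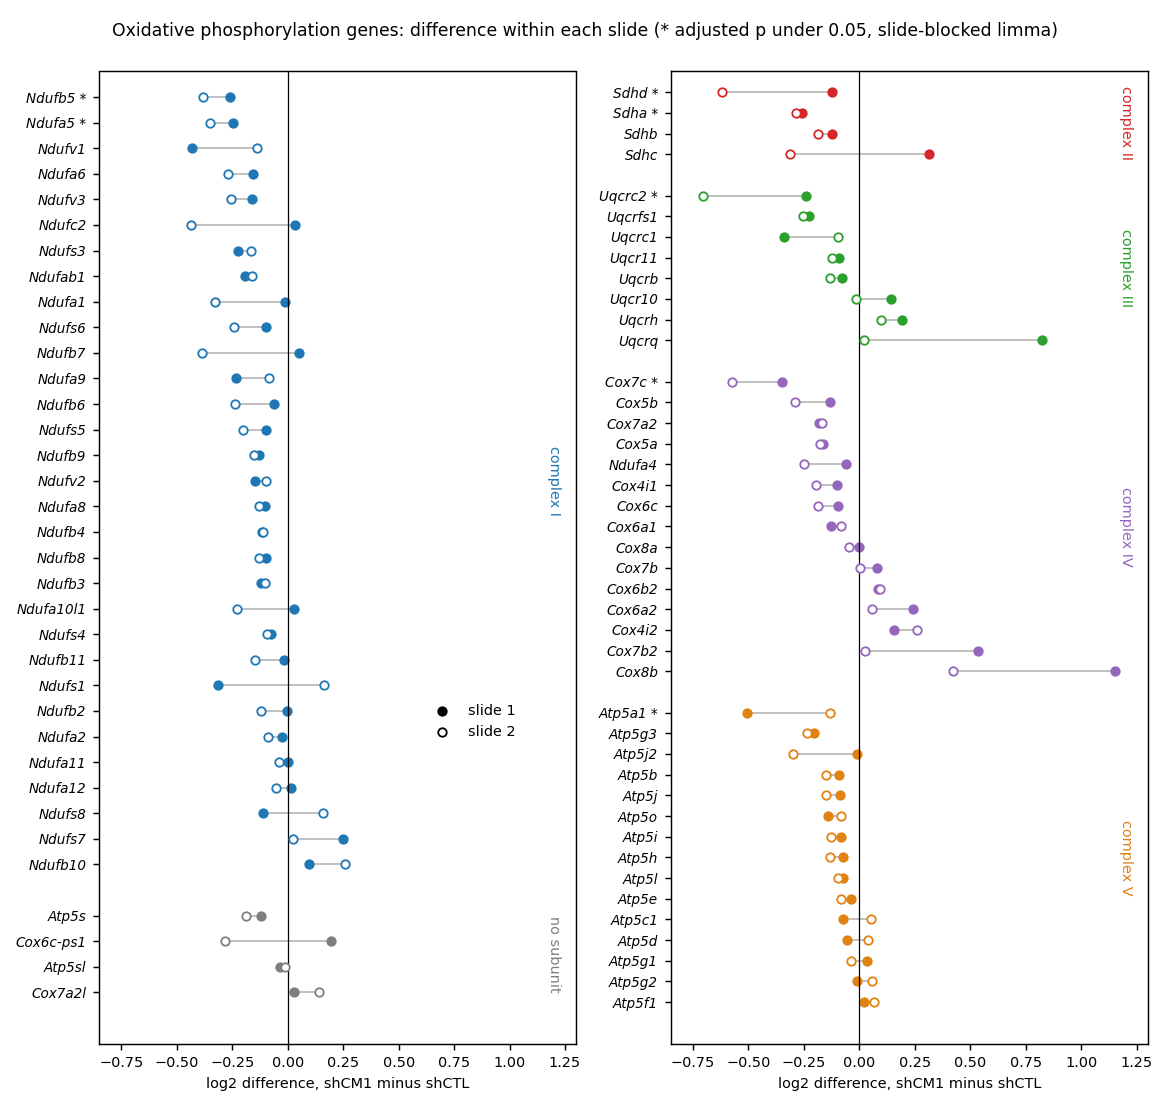
Difference in log2 signal (x axis, shCM1 minus shCTL) of 77 of the genes on slide 1 (filled) and slide 2 (open), ordered within each complex, with an asterisk for the 7 described genes called by limma with the slide as a block. Of these genes 51 have both points left of zero, and the 5 tissue-restricted isoforms of complex IV (Cox4i2, Cox6a2, Cox6b2, Cox7b2 and Cox8b) have both points to the right.

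Differences followed probe brightness across the array, and 70 of the 78 members lay above the 75th percentile of their arrays. Members' levels had quartiles of 3.47 and 5.82, and the 1565 other genes in that range had a median difference of -0.07, with 52.2% lower within both slides and 10.1% called lower in the blocked fit. The 38 members in the same range had a median difference of -0.15, with 28 lower within both slides and 6 called lower. Both shCM1 arrays lay below both shCTL arrays for 437 of the 1565 other genes and 13 of the 38 members. They lay above them for 90 of these other genes and 1 of these members. In the blocked fit, 387 of these other genes were lower and 98 higher below an unadjusted 0.05. Of the 38 members, 13 were lower and 1 higher in the same way. Genes other than members below the 75th percentile had a median of 0.15. The members thus sat in a brightness range where lower values in shCM1 were common. Under quantile scaling, which takes out most of this trend, the other genes of the range had a median of 0.01 with 33.7% lower within both slides, while the 38 members of the range had a median of -0.07 with 22 lower within both slides (57.9%).

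**Figure D2:**
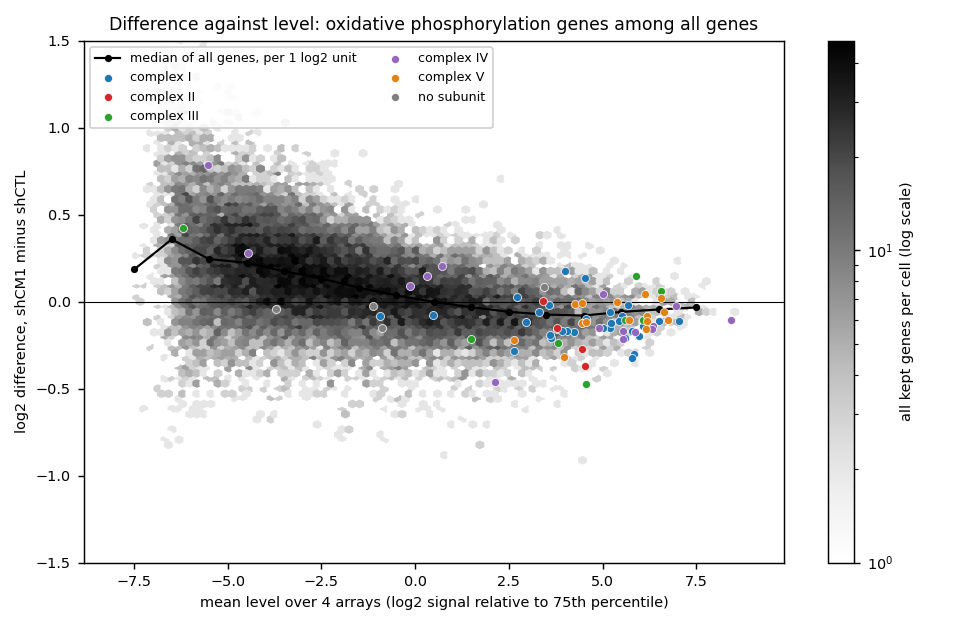
Mean level over the 4 arrays (x axis, log2 signal relative to the 75th percentile) against the difference (y axis, shCM1 minus shCTL, log2), with all kept genes as grey density, their median per log2 unit as a black line and 77 oxidative phosphorylation genes as points coloured by complex. The black line is highest, at 0.36, among dim genes (levels -7 to -6) and lowest, at -0.08, at levels 4 to 5, where many of the members lie. Its ends are at 0.19 (levels -8 to -7) and -0.03 (levels 7 to 8).

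Complex I, the NADH dehydrogenase, was represented by 32 nuclear-encoded subunits with a median difference of -0.13 (-0.10 on slide 1, -0.14 on slide 2). Of these 23 were lower within both slides and 2, Ndufs7 and Ndufb10, higher. Its 7 core subunits, which carry the flavin and iron-sulphur clusters or lie beside them, had a median of -0.12, and the 25 accessory subunits, which surround the core and take part in its assembly and stability, had -0.14 with 19 lower within both slides. The complex median was -0.06 without shCM1 replicate 2, -0.24 without shCM1 replicate 1, -0.09 without shCTL replicate 1 and -0.19 without shCTL replicate 2.

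Ndufb5, an accessory subunit of the membrane arm, had levels of 6.14 and 5.76 in shCTL and 5.88 and 5.37 in shCM1. The groups overlapped, because the slides differed by more than the groups, while within each slide shCM1 was lower, by differences of -0.26 and -0.38. The overall difference was -0.32 (80.0% of control, SE 0.08 with the block, limma adjusted p = 0.0132), and it was -0.13 without shCTL replicate 1, -0.51 without shCTL replicate 2, -0.57 without shCM1 replicate 1 and -0.07 without shCM1 replicate 2. Ndufa5, an accessory subunit of the matrix arm, had levels of 6.02 and 5.93 in shCTL and 5.78 and 5.58 in shCM1, without overlap. Its difference was -0.30 (-0.25 and -0.35 within the slides, 81.3% of control, limma adjusted p = 0.0202 with the block), and leaving out any single array kept it between -0.20 and -0.40.

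The core subunits described here differed among themselves. Ndufv1, which binds NADH and the flavin, had levels of 2.98 and 2.59 in shCTL and 2.55 and 2.45 in shCM1, a difference of -0.28 that did not pass (limma adjusted p = 0.0726 with the block). Ndufs3 and Ndufv2 had differences of -0.19 and -0.12 with both slides negative. Ndufs1, the largest core subunit, had a difference of -0.32 on slide 1 and 0.16 on slide 2, and Ndufs8 had -0.11 and 0.16. Ndufs7, which holds the last iron-sulphur cluster before ubiquinone, had 0.25 and 0.02. None of these passed the blocked test.

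Of the accessory subunits, Ndufb8 had levels of 7.24 and 6.95 in shCTL and 7.15 and 6.82 in shCM1, a difference of -0.11. Ndufs4, which sits near the NADH-oxidising module, had levels of -0.76 and -1.004 in shCTL and -0.84 and -1.10 in shCM1, a difference of -0.08. Both genes were lower within each slide by less than the slides differed. Ndufb10 had levels of 3.98 and 3.86 in shCTL and 4.08 and 4.12 in shCM1, a difference of 0.18 whose groups did not overlap and which did not pass (limma adjusted p = 0.209 with the block). Ndufc2 gave -0.20 from its brighter probe and -0.45 from the other. The 3 kept probes of Ndufa10l1, an array name for a near-identical copy of Ndufa10, gave -0.10, -0.18 and -0.20, and signal of the copies cannot be told apart.

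Complex II, succinate dehydrogenase, links the tricarboxylic acid cycle to the respiratory chain, and all of its subunits are nuclear-encoded. All 4 were measured, with a median difference of -0.21 (-0.12 on slide 1, -0.30 on slide 2). Sdha, Sdhb and Sdhd were lower within both slides, and 2 of these passed the blocked test. The median of 4 genes moved with single arrays, from -0.44 without shCM1 replicate 1 and -0.37 without shCTL replicate 2 to -0.02 without shCTL replicate 1 and 0.01 without shCM1 replicate 2.

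Sdha, the flavoprotein that oxidises succinate, had levels of 4.82 and 4.34 in shCTL and 4.56 and 4.05 in shCM1. The slides again differed more than the groups, so that the groups overlapped, and the differences within the slides were -0.26 and -0.28. The overall difference was -0.27 (82.8% of control, SE 0.08 with the block, limma adjusted p = 0.0435). It was -0.03 without shCTL replicate 1, -0.51 without shCTL replicate 2, -0.52 without shCM1 replicate 1 and -0.02 without shCM1 replicate 2. Sdhb, the iron-sulphur subunit, had levels of 4.04 and 3.69 in shCTL and 3.91 and 3.51 in shCM1, a difference of -0.15 that did not pass (limma adjusted p = 0.273 with the block).

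The membrane anchors Sdhc and Sdhd, which bind haem and ubiquinone, differed from each other in their values. Sdhd had levels of 4.77 and 4.67 in shCTL and 4.65 and 4.05 in shCM1, with no overlap and with most of the difference on slide 2 (-0.13 and -0.62). Its difference was -0.37 (77.2% of control, limma adjusted p = 0.0238 with the block), -0.67 without shCM1 replicate 1 and -0.08 without shCM1 replicate 2. Sdhc had levels of 3.40 in both shCTL arrays and of 3.71 and 3.09 in shCM1. It was higher by 0.31 on slide 1 and lower on slide 2 (-0.31), for a difference of 0.0017 over both slides.

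**Figure D3:**
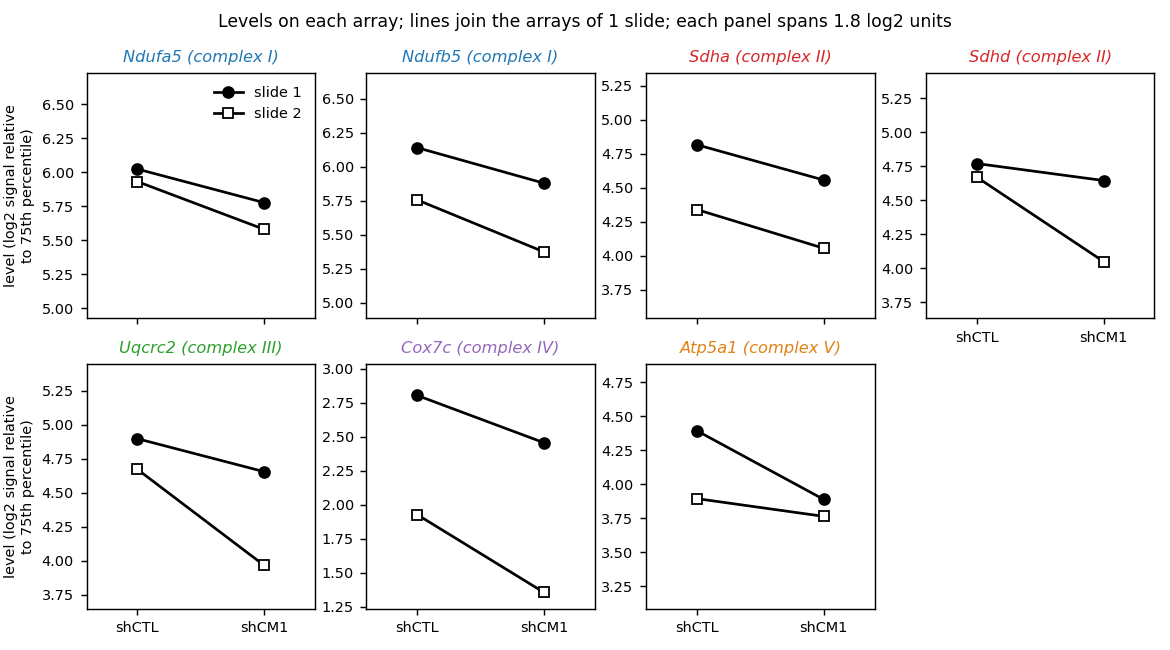
Levels (y axis, log2 signal relative to the 75th percentile of the array) of the 7 described genes called by limma with the slide as a block, in shCTL and shCM1 (x axis), with a line joining the 2 arrays of a slide. Every line slopes down, and for Ndufb5, Sdha and Cox7c the slides lie further apart than the groups.

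Complex III, the cytochrome bc1 complex, had 8 members with a median difference of -0.11 (-0.08 on slide 1, -0.11 on slide 2), 5 of them lower within both slides and 2 higher. The median ranged with single arrays left out, from -0.23 without shCM1 replicate 1 and -0.21 without shCTL replicate 2 to -0.05 without shCTL replicate 1 and 0.01 without shCM1 replicate 2. Both core proteins, Uqcrc1 and Uqcrc2, and the iron-sulphur protein had both shCM1 arrays below both shCTL arrays. The 5 small accessory subunits were split, with 2 lower within both slides, 2 higher and 1 with slides of opposite sign. Their median of 0.06 is the value of that last gene, Uqcr10. Uqcrq, 1 of the 2 higher, lay near the dim end of the array.

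Uqcrc2, a core protein that faces the matrix, had levels of 4.90 and 4.67 in shCTL and 4.65 and 3.96 in shCM1, with the lowest value in shCM1 replicate 2. Its differences were -0.24 on slide 1 and -0.71 on slide 2, or -0.47 over both (72.0% of control, SE 0.09 with the block, limma adjusted p = 0.00401). Without shCM1 replicate 1 it was -0.82 and without shCM1 replicate 2 it was -0.13. Uqcrc1, its partner, had levels of 1.76 and 1.46 in shCTL and 1.42 and 1.36 in shCM1, a difference of -0.22 that did not pass (limma adjusted p = 0.196 with the block). Uqcrfs1, the Rieske iron-sulphur protein, had levels of 3.94 and 3.92 in shCTL and 3.72 and 3.66 in shCM1. Its slides were close to each other, at -0.23 and -0.25, and the difference of -0.24 gave limma adjusted p = 0.083 with the block.

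Uqcrh, the hinge protein beside cytochrome c1, had levels of 5.87 and 5.78 in shCTL and 6.06 and 5.87 in shCM1. Its shCM1 arrays were above both shCTL arrays, by a difference of 0.14 that did not pass (limma adjusted p = 0.258 with the block). Uqcr10 had levels of 6.57 and 6.46 in shCTL and 6.71 and 6.45 in shCM1, a difference of 0.06 with slides of opposite sign. Uqcrq, well above background on 3 of the 4 arrays, had levels of -6.96 and -5.83 in shCTL and -6.14 and -5.81 in shCM1. Its difference of 0.42 came from slide 1 (0.82, against 0.02 on slide 2), near the dim end of the array. Uqcrb and Uqcr11 each had -0.11, and the other kept probes of Uqcrb gave -0.04 and -0.00079.

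Complex IV, cytochrome c oxidase, had 15 members, including Ndufa4, which is now counted among its subunits. The median difference was -0.10 (-0.06 on slide 1, -0.08 on slide 2), with 9 lower within both slides and 6 higher. Without shCM1 replicate 2 the median was 0.04 and without shCTL replicate 1 it was -0.02, and without shCTL replicate 2 or shCM1 replicate 1 it was -0.18. Several subunits exist as a general and a tissue-restricted isoform. The 10 general or single forms had a median of -0.15 with 9 lower within both slides, and the 5 tissue-restricted forms had a median of 0.21 with all 5 higher within both slides, none of them called. Each of the restricted forms was dimmer than every general form. Of the restricted forms, Cox7b2 and Cox8b were at levels below -4, where higher values in shCM1 were common across the array. Cox6b2 was also below the 75th percentile on average. Of genes other than members below that percentile, 51.4% were higher within both slides. Under normexp and quantile scaling the median of the restricted forms was 0.11 and 0.15, with 3 and 4 of them higher within both slides.

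Cox7c, a small subunit of the membrane domain, had levels of 2.80 and 1.93 in shCTL and 2.45 and 1.35 in shCM1. The groups overlapped because slide 2 was lower in both, and the differences were -0.35 and -0.57 within the slides, or -0.46 over both (72.7% of control, SE 0.09 with the block, limma adjusted p = 0.00488). A second, dimmer probe for Cox7c gave 0.00 and 0.45, and with the mean of both probes the difference was -0.12 (limma adjusted p = 0.512 with the block), so the call depends on the probe. Leaving out arrays gave -0.02 without shCTL replicate 1, -0.90 without shCTL replicate 2, -1.01 without shCM1 replicate 1 and 0.09 without shCM1 replicate 2.

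Cox4i1, the general form of subunit 4, had levels of 5.07 and 4.92 in shCTL and 4.97 and 4.72 in shCM1, a difference of -0.15. Its counterpart Cox4i2, known for its part in low oxygen and expressed in lung, had 0.84 and 0.41 in shCTL and 1.00 and 0.67 in shCM1, a difference of 0.21. Cox6a1 had a difference of -0.10 (0.00052 under cyclic loess), and Cox6a2, the heart and muscle form, had 0.15. Neither member of these pairs passed the blocked test, and the difference between isoforms was not tested. Cox6b2, the testis form, had a difference of 0.09, while Cox6b1, Cox7a1 and Ndufa4l2 were not analysed here.

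Cox7a2 had levels of 5.96 and 5.95 in shCTL and 5.78 and 5.78 in shCM1. The groups did not overlap, and the difference was -0.17 (limma adjusted p = 0.167 with the block). Cox8a had levels of 7.09 and 6.85 in shCTL and 7.09 and 6.80 in shCM1, a difference of -0.03 that turned to 0.07 under cyclic loess. Cox8b, the muscle form of the same subunit, had levels of -5.93 and -5.93 in shCTL and -4.78 and -5.51 in shCM1. Both knockdown arrays were above both controls, by 1.15 and 0.42 within the slides, and the difference of 0.79 did not pass (limma adjusted p = 0.142 with the block). Ndufa4 had a difference of -0.16, and Cox5a and Cox5b had -0.17 and -0.21.

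Complex V, the ATP synthase, had 15 members with a median difference of -0.10 (-0.07 on slide 1, -0.10 on slide 2), 10 of them lower within both slides and 1, Atp5f1 of the peripheral stalk, higher. The median was -0.0034 without shCTL replicate 1, -0.15 without shCTL replicate 2, -0.18 without shCM1 replicate 1 and -0.0072 without shCM1 replicate 2. By role, the F1 head and central stalk had a median of -0.06, the c-ring -0.0015, the peripheral stalk -0.11 and the membrane accessory subunits -0.11. Of these the F1 value turned to 0.03 under cyclic loess, and the c-ring value to 0.05 under quantile scaling and 0.08 under cyclic loess.

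Atp5a1 (current symbol Atp5f1a), the alpha subunit of the F1 head, had levels of 4.39 and 3.90 in shCTL and 3.89 and 3.76 in shCM1. The groups met without overlapping, since shCTL replicate 2 and shCM1 replicate 1 were nearly equal. Most of the difference was on slide 1 (-0.51, against -0.13 on slide 2), and the overall value was -0.32 (80.2% of control, SE 0.09 with the block, limma adjusted p = 0.041). Without shCTL replicate 1 it was -0.07 and without shCTL replicate 2 it was -0.57. Atp5b (Atp5f1b), the catalytic beta subunit that alternates with alpha in the head, had levels of 4.72 and 4.32 in shCTL and 4.63 and 4.17 in shCM1, a difference of -0.12 that did not pass (limma adjusted p = 0.385 with the block).

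The c-ring, which turns as protons pass, is built from the same mature protein made from several genes. Atp5g3 (Atp5mc3) had levels of 2.95 and 2.57 in shCTL and 2.74 and 2.34 in shCM1, a difference of -0.22 with both slides alike (-0.21 and -0.23) and limma adjusted p = 0.138 with the block. Atp5g1 and Atp5g2 had -0.0015 and 0.02, each with slides of opposite sign, and these values changed sign under other scalings. A second array name described as Atp5g3 gave -0.23. Of the accessory subunits, Atp5i (Atp5me) had levels of 6.87 and 6.72 in shCTL and 6.79 and 6.59 in shCM1, a difference of -0.11.

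Among the genes that share the names but are not subunits, Atp5s (Dmac2l, coupling factor B) had a difference of -0.15 and Atp5sl (Dmac2, linked to complex I assembly) -0.02. Cox7a2l, which joins complexes III and IV into supercomplexes, had levels of 3.43 and 3.35 in shCTL and 3.46 and 3.49 in shCM1, a difference of 0.09. None of these passed the blocked test. Subunits that the name pattern misses were looked up as well. Atp5mk, listed as Usmg5, had levels of 6.40 and 6.33 in shCTL and 6.19 and 6.01 in shCM1, a difference of -0.26 that passed (limma adjusted p = 0.0381 with the block). Ndufa3, Cyc1 (cytochrome c1 of complex III) and Ndufa13 had -0.24, -0.12 and -0.09 and did not pass. Of the subunits encoded in mitochondrial DNA, 1 was found by its description, coIII of complex IV, at 8.59 and 7.92 in shCTL and 8.81 and 7.98 in shCM1, a difference of 0.13 (limma adjusted p = 0.259 with the block).

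The number of members called differed with the scaling. In the blocked fit, 6 members passed with normexp background correction, 3 with quantile scaling, 2 with cyclic loess and 1 with the authors' value table, all lower in shCM1, where 2.62%, 1.91%, 1.54% and 1.44% of all genes were called lower and 2.04%, 1.21%, 0.902% and 0.82% higher. With no filter on dim probes 1 member was lower (0.748% of all genes lower, 0.327% higher), with probes well above background on all arrays 8 (3.36% and 3.9%), and with the mean of a gene's probes 4 (2.21% and 2.65%). Sdhd and Atp5a1 passed only under the 75th percentile scaling, Ndufb5, Ndufa5 and Sdha there and with normexp, Uqcrc2 also with quantile scaling, and Cox7c also with cyclic loess. The median over the members stayed below zero throughout, at -0.14, -0.06, -0.04 and -0.06 under these 4 in turn, and the numbers lower within both slides were 52, 43, 37 and 43. Complex II had the lowest median under each scaling, from 4 genes.

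**Figure D4:**
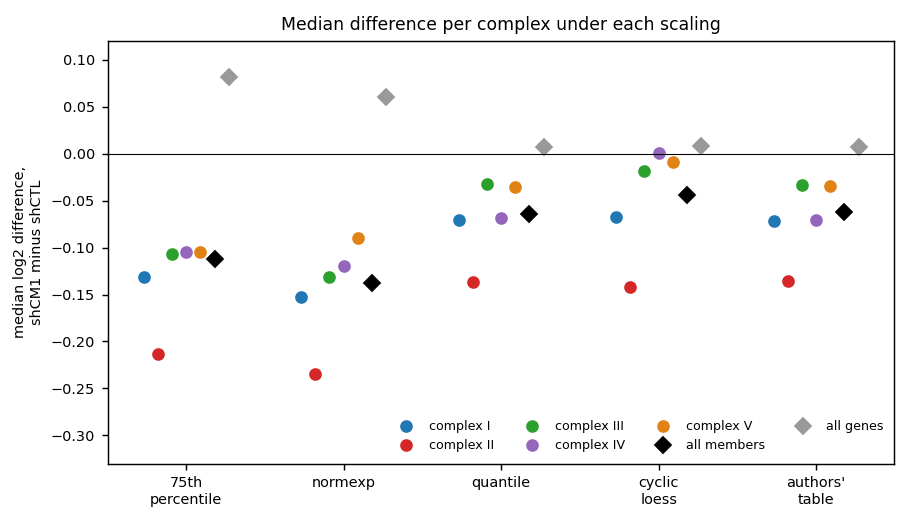
Median difference (y axis, shCM1 minus shCTL, log2) of each complex (circles), of all 78 oxidative phosphorylation genes (black diamonds) and of all kept genes (grey diamonds) under 5 scalings (x axis). The members' median lies between -0.14 and -0.04 and below that of all genes under each scaling, and complex IV reaches 0.00052 under cyclic loess.

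Genes that build or feed the chain were measured beside the subunits, and list counts are for the blocked fit. In that fit 3.05% of all genes were lower and 3.7% higher, and the median difference of all genes was 0.08. Of the 1565 other genes in the members' brightness range (levels 3.47 to 5.82), 10.1% were lower and 2.62% higher, with a median of -0.07. Most genes of the lists below were dimmer than that range, so it is not a matched background for them. All genes had a median of 0.04 at levels -1 to 0 and of -0.06 at levels 2 to 3. Of 16 measured electron carrier genes (18 listed), 2 were lower and none higher, with a median difference of -0.09. These were Coq3, a methyltransferase of ubiquinone synthesis (-0.35, limma adjusted p = 0.0248, and -0.20 without shCTL replicate 2), and Etfa, a subunit of the electron transfer flavoprotein (-0.38, limma adjusted p = 0.048). Cycs, cytochrome c, had -0.01, and 0.06 under quantile scaling. Of 12 measured complex I assembly factors (14 listed), 1 was lower, Nubpl, an iron-sulphur carrier (-0.39, limma adjusted p = 0.0288), with a median of -0.16. Of 24 measured assembly factors of complexes II to V (32 listed), 2 were lower, with a median of -0.09. Sdhaf1, which helps to insert the iron-sulphur clusters of Sdhb, had levels of 2.00 and 1.92 in shCTL and 1.41 and 1.42 in shCM1, a difference of -0.55 (limma adjusted p = 0.00108). Cox17, a copper chaperone of complex IV, had -0.47 (limma adjusted p = 0.00714), with -0.79 without shCM1 replicate 1 and -0.16 without shCM1 replicate 2.

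Of 22 measured genes of the tricarboxylic acid cycle and pyruvate dehydrogenase (23 listed), 4 were lower and none higher, with a median difference of -0.08. The background was 3.05% of all genes lower and 3.7% higher, and 10.1% lower in the members' brightness range, where other genes had a median of -0.07. Most of these 22 genes, Sucla2 among them, were dimmer than that range, while Pdha1, Fh and Cs lay in it. Sucla2, a subunit of the ATP-forming succinyl-CoA ligase, had levels of 3.59 and 3.39 in shCTL and 3.03 and 2.83 in shCM1. The groups did not overlap, and the difference was -0.56, with -0.57 and -0.56 within the slides (limma adjusted p = 0.000309). Pdha1, the E1 alpha subunit of pyruvate dehydrogenase, had levels of 4.58 and 4.09 in shCTL and 4.11 and 3.50 in shCM1, a difference of -0.53 (limma adjusted p = 0.000416). It was -0.28 without shCTL replicate 1, -0.83 without shCM1 replicate 1 and -0.22 without shCM1 replicate 2. Fh, fumarate hydratase, and Cs, citrate synthase, had -0.33 and -0.30 (limma adjusted p = 0.0167 and 0.0289).

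Of the 20 regulators of mitochondrial biogenesis and mitochondrial DNA expression, all measured, 1 was lower and none higher, with a median difference of 0.04. The background was again 3.05% of all genes lower and 3.7% higher, with a median of 0.08. Polg, the mitochondrial DNA polymerase, had levels of 0.81 and 0.20 in shCTL and -0.02 and -0.16 in shCM1, a difference of -0.60 (limma adjusted p = 0.00352), with -0.29 without shCTL replicate 1 and -0.90 without shCTL replicate 2. Of the factors whose letters were searched in the promoters, Nrf1 had a difference of 0.14, Gabpa of 0.13 and Yy1 of 0.01, which under quantile scaling were -0.014, 0.027 and -0.00031. Ppargc1a, a coactivator of the programme, had 0.25, and Tfam, the mitochondrial DNA packaging factor, -0.19. None of these 5 passed. Under all 5 scalings, Sdhaf1, Sucla2, Pdha1 and Polg passed the blocked test.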

How the data were processed

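Total RNA of 4 cultures was hybridised to single-colour Agilent arrays (design build rn4), 2 arrays a group. The deposited scanner files hold spot intensity, which the scanner software (Agilent Feature Extraction, version 10.7.3.1 in the headers) had processed within each array, and the deposited value table of the series holds linear intensity whose making the sources used here do not give. On the log2 scale its columns matched their arrays with correlations of at least 0.9998, and it served as an alternative. The arrays held 43379 gene spots for 41012 probes, of which 34439 to 37068 were well above background. The 75th percentile signal was 596.3 to 754.5, 86 to 98 outlier spots an array were left out, and no gene spot was saturated. The number of arrays limits the precision.

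Each probe's spots were averaged, converted to log2 and set relative to the 75th percentile of the array. Probes well above background on at least 2 arrays were kept (36701), and the brightest probe of a gene name represented it. Of the members 11 had more than 1 kept probe, 74 were named through a RefSeq accession (GRCr8 table), and 17 have a different current symbol. Groups come from the labels' shRNA field, while sample titles carry a prefix of si. limma 3.58.1 in R 4.3.3 (lmFit, eBayes with an intensity trend, two-sided, Benjamini-Hochberg over all genes, threshold 0.05) was run without and with the slide as a block. Per the file headers, the replicate number is also the slide and the scan, and no label says that a slide holds 1 experiment. Across genes, the deviations from the group mean of arrays with the same number had a correlation of 0.713.

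The members, gene lists and marker lists were chosen with earlier results of these data known. Named by rule were Cmtr1, members past either fit, members filling each complex to 3 by the size of the smaller within-slide difference, isoform groups, all Sdh genes, the brightest and dimmest of each complex, and up to 4 called genes a list. Other genes were named after their values were seen. The result of 1 member is not reported here, while counts and medians include it. Alternatives were normexp (offset 50), quantile and cyclic loess scaling, the authors' table, other filters on dim probes, the mean of a gene's probes, the slide block with and without an intensity trend, and leaving out each array.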

Additional observations from a re-analysis of the deposited data

How the results depend on the processing

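The small number of arrays and their split over slides limit every result. Without the block no alternative called a member, and none called a gene except 1 gene without shCTL replicate 2, so that the left-out arrays gave 0 to 1 genes and 0 members. With the replicate block 2048 genes and 8 members were called. Combined with that block, in alternatives chosen after seeing the data, the counts of genes and members were 1414 and 6 with normexp, 947 and 3 with quantile, 741 and 2 with cyclic loess, 687 and 1 with the authors' table, 368 and 1 with no filter on dim probes, 2028 and 8 with probes well above background on all arrays, and 1474 and 4 with the mean of all probes. The block with no intensity trend called 0 of both. The cause of these differences was not tested.

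The median of all members was -0.065 under quantile, -0.044 under cyclic loess and -0.062 under the authors' table. In the same order complex I had -0.071, -0.067 and -0.072, complex III -0.033, -0.018 and -0.033, complex IV -0.069, 0.00052 and -0.071, and complex V -0.036, -0.0092 and -0.035. Under normexp complexes III and IV had -0.13 and -0.12, and with the mean of all probes complex III had -0.078. With 1 array left out, the median ranged from -0.23 to -0.0024 over all members, -0.24 to -0.063 in complex I, -0.44 to 0.013 in complex II, -0.23 to 0.014 in complex III, -0.18 to 0.036 in complex IV and -0.18 to -0.0034 in complex V.

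Of named genes, Cox6a1 turned to 0.00052 and Cox8a to 0.072 under cyclic loess, Atp5sl to 0.016 and Atp5g2 to -0.044 under normexp, and Atp5g1 to 0.078, 0.083 and 0.070 under quantile, cyclic loess and the authors' table, each with and without the replicate block. With 1 array left out, these members named by rule changed sign, with ranges of Ndufb8 -0.27 to 0.050, Ndufs4 -0.21 to 0.045, Sdhb -0.36 to 0.048, Sdhc -0.31 to 0.32, Uqcr10 -0.069 to 0.20, Uqcrq -0.14 to 0.99, Cox7c -1.01 to 0.090, Cox6a1 -0.32 to 0.11, Atp5b -0.35 to 0.11, Atp5s -0.35 to 0.047, Atp5sl -0.10 to 0.057, Cox4i2 -0.0098 to 0.43, Cox6a2 -0.17 to 0.47, Cox6b2 -0.15 to 0.33, Cox8a -0.17 to 0.12, Ndufa4 -0.34 to 0.023, Atp5g1 -0.097 to 0.094 and Atp5g2 -0.084 to 0.13. Other described genes changed sign too, among them Ndufs7 (-0.047 to 0.32), Ndufs1 (-0.37 to 0.22), Ndufs8 (-0.078 to 0.13) and Ndufc2 (-0.48 to 0.078). So did Ndufa10l1 (-0.27 to 0.068), Uqcr11 (-0.24 to 0.027) and Atp5f1 (-0.025 to 0.11).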
